A study of Mus musculus with 12 samples.

Results

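Havcr1, Lcn2, Spp1, Clu, Vcam1 and Cd44, 6 genes long used as markers of the injured renal tubule, were read across all 12 libraries of a mouse kidney RNA sequencing study. They were taken by gene symbol from the deposited count table, where each had 1 row, so that the set held 6 of 42748 genes, and all 6 were among the 19218 genes that passed the filter on low counts. Kidney total RNA came from adult mice in 4 groups of 3 libraries: Ybx3 knockout kidneys after ischemia/reperfusion injury (KO IRI), wild-type kidneys after the same injury (WT IRI), uninjured Ybx3 knockout kidneys (KO control) and uninjured wild-type kidneys (WT control). Ybx3 codes for DNA-binding protein A, which belongs to the cold shock domain family and binds nucleic acids, and ischemia/reperfusion injury interrupts and then restores renal blood flow. The mice are described as carrying a genetic deletion of Ybx3. The sources used here do not give the strain, the sex, the time between injury and sampling or the cells in which the deletion acts. The labels name separate samples and do not say whether each is a separate animal, so that p-values measure the spread between these samples. In KO IRI, WT IRI and KO control the libraries of a group differed widely in the level of Y-linked genes, as given below.

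Injured tubule cells, above all those of the proximal tubule, lose transport functions and take on a repair state in which they make a set of surface and secreted proteins that healthy tubules make at low levels. Havcr1 encodes KIM-1, a receptor for phosphatidylserine with which surviving tubule cells take up dead ones, and Lcn2 encodes lipocalin 2 (NGAL), which binds iron-loaded siderophores. Both proteins reach the urine and are used as biomarkers of acute kidney injury. Spp1 encodes osteopontin, a secreted ligand of integrins and of CD44. Cd44 encodes a hyaluronan receptor, Clu encodes the secreted chaperone clusterin, and Vcam1 encodes an adhesion molecule that binds the integrin of Itga4 and Itgb1 on leukocytes and is also made by tubule cells that fail to repair.

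In mm10 coordinates of GENCODE M21, Havcr1 (ENSMUSG00000040405) lies on chromosome 11 from 46735080 to 46779578 on the plus strand. Lcn2 (ENSMUSG00000026822) lies on chromosome 2 from 32384633 to 32388252, and Cd44 (ENSMUSG00000005087) on the same chromosome from 102811141 to 102901665, both on the minus strand. Spp1 (ENSMUSG00000029304) lies on chromosome 5 from 104435118 to 104441050 and Clu (ENSMUSG00000022037) on chromosome 14 from 65968483 to 65981547, both on the plus strand. Vcam1 (ENSMUSG00000027962) lies on chromosome 3 from 116109949 to 116129688 on the minus strand. The merged exons span between 1648 bp for Spp1 and 8870 bp for Vcam1. The annotation also holds Gm42793, which shares 309 bp of exon with Spp1 on the same strand, and Gm43109, which shares 61 bp with Vcam1 on the opposite strand. The sources used here do not say whether counting used the strand, so reads in these stretches cannot be assigned between the genes. Gm23731, which lies opposite to Cd44 without shared exon bases, had 0 counts in every library.

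Promoter windows are shown because the 3 genes with the largest responses to injury, Havcr1, Lcn2 and Spp1, were called in both genotypes and are known targets of stress-responsive transcription factors. RefSeq windows of GRCm38.p6, which run from 250 bases before a start site to 50 bases from it on, were found for 4 of the 6 genes and number 7. The windows below are chr11:46750918-46751217 on the plus strand (the third of 3 Havcr1 windows), chr2:32387690-32387989 on the minus strand (Lcn2) and chr5:104434861-104435160 on the plus strand (the first of 2 Spp1 windows). Capitals mark matches to 6 searched motifs.

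Havcr1 window 3: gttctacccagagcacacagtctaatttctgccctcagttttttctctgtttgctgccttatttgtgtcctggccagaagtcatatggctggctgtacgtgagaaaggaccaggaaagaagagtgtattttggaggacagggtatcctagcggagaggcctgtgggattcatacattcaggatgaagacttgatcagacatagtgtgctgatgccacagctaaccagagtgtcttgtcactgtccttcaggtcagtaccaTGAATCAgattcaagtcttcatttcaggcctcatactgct

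Lcn2: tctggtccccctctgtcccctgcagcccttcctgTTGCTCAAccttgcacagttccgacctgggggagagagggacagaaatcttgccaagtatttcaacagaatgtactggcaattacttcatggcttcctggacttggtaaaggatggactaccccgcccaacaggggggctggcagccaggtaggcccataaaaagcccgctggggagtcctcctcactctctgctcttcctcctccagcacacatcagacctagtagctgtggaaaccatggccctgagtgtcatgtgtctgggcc

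Spp1 window 1: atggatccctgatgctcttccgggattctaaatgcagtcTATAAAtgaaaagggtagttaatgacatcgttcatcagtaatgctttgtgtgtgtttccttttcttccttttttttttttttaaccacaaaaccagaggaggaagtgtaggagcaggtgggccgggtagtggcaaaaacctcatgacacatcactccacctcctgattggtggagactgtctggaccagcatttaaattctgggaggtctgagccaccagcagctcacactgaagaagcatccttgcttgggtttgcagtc

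The motifs were AP-1 (TGANTCA), STAT (TTCNNNGAA), C/EBP (TTGCNNAA), TEAD (GGAATG) and the kappaB motif of NF-kB, each on both strands, and a TATA box (TATAAA) on the gene's strand. Counting from 0 at the start site, the Havcr1 window holds an AP-1 match (TGAATCA) at 10 to 16, the Lcn2 window a C/EBP match (TTGCTCAA) at -216 to -209, and the Spp1 window a TATA box match at -211 to -206. The other windows hold a C/EBP match at -46 to -39 in the second window of Havcr1 and one at -156 to -149 in the second window of Spp1, and no match in the first window of Havcr1 or in that of Cd44. Of 32851 RefSeq windows of the same length, 7.81% hold AP-1, 10.8% C/EBP, 8.32% the TATA box, 8.46% the kappaB motif, 8.3% STAT and 14.7% TEAD. Such matches occur by letters alone and are a description of the sequence.

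The libraries held 39074224 to 67948710 counts. Ybx3 averaged 15.9 CPM in KO IRI and 79.8 CPM in WT IRI kidneys, and 10.6 CPM in KO control and 33.4 CPM in WT control kidneys, where CPM, the unit of all levels here, is the count scaled to library size after TMM normalization. Its log2 fold change in KO over WT kidneys was -1.99 averaged over conditions (SE 0.16, quasi-likelihood F test of edgeR, Benjamini-Hochberg adjusted p = 0.000916). It was -2.33 after injury (SE 0.23, edgeR adjusted p = 0.00719) and -1.66 in control kidneys (SE 0.23, edgeR adjusted p = 0.0784). Markers of the proximal tubule were abundant, with a summed level of 16082 to 21911 CPM over 17 genes in the control libraries. Summed over the Y-linked genes Uty, Kdm5d, Ddx3y and Eif2s3y, the level was 45.2, 227 and 1.26 CPM in KO IRI replicates 1 to 3 and 207, 33.2 and 307 CPM in WT IRI. It was 1.18, 249 and 261 CPM in KO control and 1.14 to 1.79 CPM in all WT control libraries. KO IRI replicates 1 and 2 held 272 and 1397 CPM of 5 genes of adrenal steroid synthesis, against 5.15 to 7.49 CPM in the other 10 libraries. Results for the 6 markers and for the gene lists are given with these libraries first, and then without KO IRI replicates 1 and 2 or with a covariate for the Y-linked level.

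After injury the tubular markers split into those that were nearly silent in control kidneys, Havcr1 and Lcn2, those already expressed at high levels, Spp1 and Clu, and the weakly expressed adhesion genes Cd44 and Vcam1. In KO kidneys all 6 rose, and in WT kidneys 5 rose, all but Vcam1, at an adjusted p under 0.05 over all genes tested. Of all genes tested, 3.9% were called higher and 2.42% lower in KO kidneys, and 13.1% higher and 9.41% lower in WT kidneys. These shares vary with single libraries. In KO kidneys 1215 genes were called with all libraries, 178 without KO control replicate 2 and 2889 without WT IRI replicate 3, the lowest and highest counts when leaving out 1 library. In WT kidneys 4320 genes were called with all libraries, 1570 without WT control replicate 2 and 7129 without WT IRI replicate 2. The median log2 fold change of the 6 genes was 2.19 in KO and 2.21 in WT kidneys, where that of all genes tested was 0.023 and 0.021. Averaged over both genotypes all 6 were called higher, against 16.9% of all genes. There Vcam1 missed the threshold in 5 of 23 alternative settings (edgeR adjusted p from 0.0506 to 0.0708), among them the fit without the adrenal libraries, and the other 5 passed in every one.

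Havcr1 reached 234, 463 and 204 CPM in KO IRI replicates 1 to 3 and 769, 358 and 720 CPM in WT IRI replicates 1 to 3. It stood at 0.859, 1.09 and 1.57 CPM in KO control and 1.46, 1.44 and 1.12 CPM in WT control libraries. Every injured library lay far above every control library, and the weakest injured kidneys were KO IRI replicates 3 and 1. The log2 fold change was 8.0 in KO (SE 0.48, edgeR adjusted p = 6.3e-05) and 8.84 in WT kidneys (SE 0.49, edgeR adjusted p = 3.1e-05), or 256-fold (95% interval 124 to 531) and 459-fold (216 to 973). By log2 fold change it ranked 4 from the top of 19218 genes in KO and 8 in WT kidneys. In bulk tissue more cells that make an RNA and more RNA per cell cannot be told apart.

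Lcn2 had 42.3, 95.5 and 64.3 CPM in KO IRI and 237, 84.8 and 299 CPM in WT IRI libraries. In the controls it had 0.828, 0.675 and 0.664 CPM in KO and 1.64, 0.456 and 0.906 CPM in WT kidneys, from 27 to 81 counts per library. The injured and control libraries were far apart, and among the injured ones only WT IRI replicates 1 and 3 passed 100 CPM. The log2 fold change was 6.54 in KO (SE 0.60, edgeR adjusted p = 0.00077) and 7.70 in WT kidneys (SE 0.63, edgeR adjusted p = 0.000356). Lcn2 is also made by neutrophils, whose markers moved with it. The summed level of 13 neutrophil markers was 4.57, 7.05 and 5.91 CPM in KO IRI replicates 1 to 3 and 21.2, 5.69 and 27.3 CPM in WT IRI, against 1.44 to 1.89 CPM in KO control and 1.6 to 1.70 CPM in WT control. Of 8 tested neutrophil markers, 2 rose in KO (median log2 fold change 2.66) and 6 in WT kidneys (median 5.32), against 3.9% and 13.1% of all genes tested. Of the 13 listed, Mpo had 0 counts in all KO IRI libraries, and Mpo and Mmp8 had 0 in all WT control libraries. The filter on low counts keeps a gene that is high enough in as few as 3 libraries. A marker high in injured libraries alone can thus enter the test, which can raise the share called and the median of the tested markers. The part of neutrophils in the Lcn2 result was not tested.

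Spp1, the osteopontin gene, was the most abundant of the 6 in every library. It had 1999, 2405 and 2946 CPM in KO IRI and 4152, 2941 and 4074 CPM in WT IRI libraries, against 414, 251 and 234 CPM in KO control and 617, 558 and 473 CPM in WT control. Every injured library was above every control library, and KO IRI replicate 3 and WT IRI replicate 2 met at the same level. The log2 fold change was 3.03 in KO (SE 0.26, edgeR adjusted p = 0.000753) and 2.76 in WT kidneys (SE 0.26, edgeR adjusted p = 0.000509). Its share of all counts was 0.208% to 0.305% in KO IRI and 0.30% to 0.407% in WT IRI, against 0.022% to 0.0438% in KO control and 0.0494% to 0.0603% in WT control.

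Cd44, a receptor for osteopontin and hyaluronan, had 15.6, 22.5 and 20.4 CPM in KO IRI and 23.4, 15.5 and 24.2 CPM in WT IRI libraries. It had 7.44, 8.70 and 7.34 CPM in KO control and 6.68, 7.23 and 6.07 CPM in WT control libraries. Injured and control libraries did not overlap, and both genotypes spanned nearly the same range after injury. The log2 fold change was 1.32 in KO (SE 0.19, edgeR adjusted p = 0.00549) and 1.66 in WT kidneys (SE 0.19, edgeR adjusted p = 0.00124). Leukocytes carry CD44 too, and 3 of 14 macrophage and monocyte markers rose in KO and 5 in WT kidneys, against 3.9% and 13.1% of all genes tested. Among them in both were Cd68 and Cd14, while Csf1r fell in both (median log2 fold change 0.56 in KO and 0.069 in WT). The summed level of that list was 96.1 to 107 CPM in KO IRI and 116 to 219 CPM in WT IRI, against 93.0 to 106 CPM in KO control and 114 to 121 CPM in WT control, and none of its genes was at 0 in any library. The part of these cells in the Cd44 and Spp1 results was not tested.

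Clu, the clusterin gene, had 211, 273 and 273 CPM in KO IRI and 525, 302 and 509 CPM in WT IRI libraries. In the controls it had 109, 96.6 and 92.9 CPM in KO and 161, 186 and 144 CPM in WT kidneys. The 4 groups followed each other without overlap, with KO control lowest, then WT control, KO IRI and WT IRI. The log2 fold change was 1.34 in KO (SE 0.20, edgeR adjusted p = 0.00696) and 1.45 in WT kidneys (SE 0.20, edgeR adjusted p = 0.00244).

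Vcam1 was the exception. It had 10.9, 10.7 and 13.0 CPM in KO IRI and 8.51, 12.4 and 8.89 CPM in WT IRI libraries, against 7.88, 6.32 and 5.84 CPM in KO control and 9.38, 9.80 and 8.73 CPM in WT control. In KO kidneys every injured library was above every control library, whereas in WT kidneys only replicate 2 of the injured libraries passed the highest control. The log2 fold change was 0.78 in KO kidneys (SE 0.17, edgeR adjusted p = 0.0263) and 0.093 in WT kidneys (SE 0.17, 95% interval -0.28 to 0.47, edgeR adjusted p = 0.713). The KO call ended without KO control replicate 2 or 3 (edgeR adjusted p = 0.113 and 0.114) and without KO IRI replicate 2 or 3 (edgeR adjusted p = 0.0822 and 0.115). It also ended with the replicate number as a block (edgeR adjusted p = 0.0643). In WT kidneys the sign turned without WT IRI replicate 2 (log2 fold change -0.099, edgeR adjusted p = 0.651). Of the genes tested, 21.2% had every injured library above every control library in KO kidneys, and 21.2% in WT kidneys, a pattern shown by 6 and 5 of the 6 markers. Endothelial cells carry VCAM1 as well, and the summed level of 10 endothelial markers was 737 to 760 CPM in KO IRI and 696 to 756 CPM in WT IRI, against 710 to 803 CPM in KO control and 697 to 779 CPM in WT control.

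**Figure D1:**
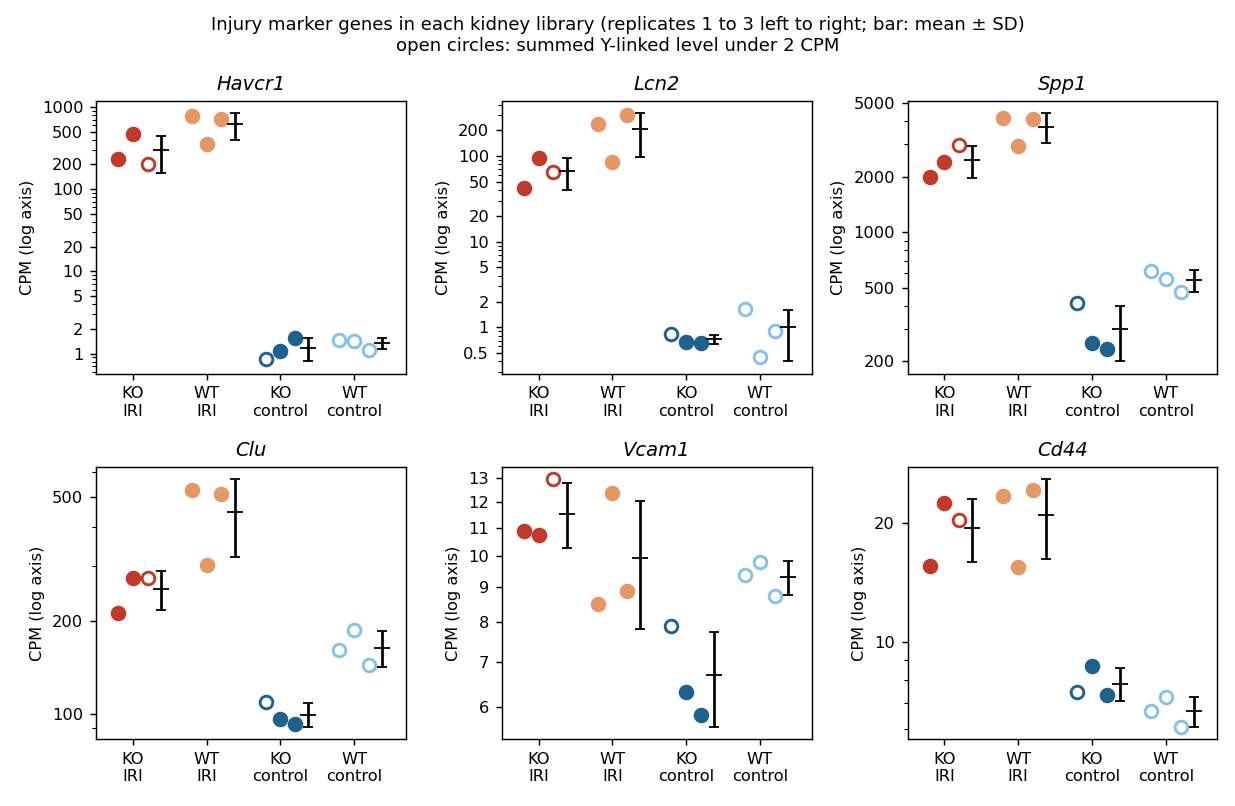
Level of each marker in each library on a logarithmic CPM axis, with the mean and SD of each group of 3 and open circles for libraries whose summed Y-linked level was under 2 CPM. Havcr1 and Lcn2 separate injured from control libraries by the widest margin, Clu steps through the 4 groups without overlap, and WT IRI overlaps WT control only for Vcam1.

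Adrenal content and the size of the KO IRI group cannot be told apart in a fit without the pair of libraries with adrenal transcripts. Without them, with KO IRI replicate 3 alone set against the KO controls and assumed to vary like the other groups, Havcr1 (log2 fold change 7.43, edgeR adjusted p = 0.000361), Lcn2 (6.45, edgeR adjusted p = 0.0104) and Spp1 (3.27, edgeR adjusted p = 0.00877) were still called. Clu (1.43, edgeR adjusted p = 0.0898), Cd44 (1.36, edgeR adjusted p = 0.0713) and Vcam1 (0.93, edgeR adjusted p = 0.205) were not, with log2 fold changes at least as large as with all libraries. In this fit only 44 genes of the whole table (0.219%) were called for injury in KO kidneys, against 1215 with all libraries.

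Y-linked level differed between the WT groups as well, with low levels in all controls and higher ones in all injured libraries, so that in WT kidneys it cannot be told apart from the injury within the group comparison. With that level as a covariate over all 12 libraries, the WT log2 fold changes were 7.95 for Havcr1, 7.36 for Lcn2, 3.18 for Spp1, 1.45 for Clu, 0.43 for Vcam1 and 1.49 for Cd44, and the same 5 genes were called (edgeR adjusted p up to 0.0399 for Clu). In that fit 306 genes were called for injury in WT kidneys, against 4320 without the covariate. KO IRI replicate 3 and KO control replicate 1, both with low levels, differed as 204 and 0.859 CPM of Havcr1, 64.3 and 0.828 CPM of Lcn2, 2946 and 414 CPM of Spp1, 273 and 109 CPM of Clu, 13.0 and 7.88 CPM of Vcam1, and 20.4 and 7.44 CPM of Cd44. This pair is 1 library against 1. Every KO IRI library lay above every KO control library for all 6 genes, as did 21.2% of all genes tested. The part of Y-linked level in the KO injury differences was not tested by these values.

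Levels were also set per kilobase of merged exon, a length that pools all annotated transcripts of a gene. It can exceed the length of the RNA made, so levels of different genes compare only roughly. On this scale the order of the markers changed with injury. In KO IRI kidneys Spp1 averaged 1487 CPM per kilobase, followed by Havcr1 (130 ± 61.2), Clu (73.4 ± 10.5), Lcn2 (25.7 ± 10.2), Cd44 (2.88 ± 0.53) and Vcam1 (1.30 ± 0.14; SD, n = 3). WT IRI kidneys had the same order, with 2259 CPM per kilobase for Spp1, 266 ± 97.0 for Havcr1, 130 ± 36.3 for Clu, 78.8 ± 42.0 for Lcn2, 3.11 ± 0.72 for Cd44 and 1.12 ± 0.24 for Vcam1 (SD, n = 3). In KO IRI libraries no neighbours in this order overlapped, and in WT IRI libraries Clu and Lcn2 did, since Lcn2 in replicates 1 and 3 (90.2 and 114) passed Clu in replicate 2 (87.8). In control kidneys Havcr1 and Lcn2 were the lowest. KO control kidneys had 182 ± 60.1 CPM per kilobase of Spp1, 29.0 ± 2.53 of Clu, 1.15 ± 0.11 of Cd44, 0.753 ± 0.12 of Vcam1, 0.507 ± 0.16 of Havcr1 and 0.275 ± 0.035 of Lcn2. WT control kidneys had 333 ± 43.8 of Spp1, 47.6 ± 6.18 of Clu, 1.05 ± 0.061 of Vcam1, 0.983 ± 0.085 of Cd44, 0.579 ± 0.083 of Havcr1 and 0.382 ± 0.23 of Lcn2. In WT controls Vcam1 and Cd44 overlapped, as did Havcr1 and Lcn2, and in KO controls Vcam1 and Havcr1 did.

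Ranked by this level among the tested genes of a library, Spp1 stood at 21 to 24 in KO IRI and 18 to 21 in WT IRI, against 68 to 168 in KO control and 57 to 60 in WT control. Havcr1 stood at 80 to 267 in KO IRI and 60 to 126 in WT IRI, against 14096 to 15713 in KO control and 14352 to 14983 in WT control. Havcr1 thus stood among the rarer RNAs of control kidneys and among the most abundant ones after injury. Together the 6 genes held 0.262% to 0.364% of the counts in KO IRI and 0.379% to 0.561% in WT IRI, against 0.0322% to 0.0572% in KO control and 0.0661% to 0.0779% in WT control, most of it Spp1.

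Injured libraries of 1 genotype differed from each other, and in WT kidneys most markers moved in step across them. In WT IRI, replicate 2 had the lowest Havcr1, Lcn2, Spp1, Clu and Cd44 and the highest Vcam1 of the 3 libraries. Against the mean of the WT controls, Havcr1 was 268-fold higher there and 574-fold and 538-fold higher in replicates 1 and 3. In KO IRI no library was lowest throughout, since replicate 1 was lowest for Lcn2, Spp1, Clu and Cd44, replicate 2 highest for Havcr1, Lcn2 and Cd44, and replicate 3 highest for Spp1 and Vcam1. WT IRI replicate 2 also held the highest proximal tubule level of its group, with a summed level of 12039 CPM over 17 markers, against 6340 and 8248 CPM in replicates 1 and 3. The coefficient of variation among WT IRI libraries ran from 18.2% for Spp1 to 53.2% for Lcn2, and among KO IRI libraries from 10.9% for Vcam1 to 47.1% for Havcr1.

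**Figure D2:**
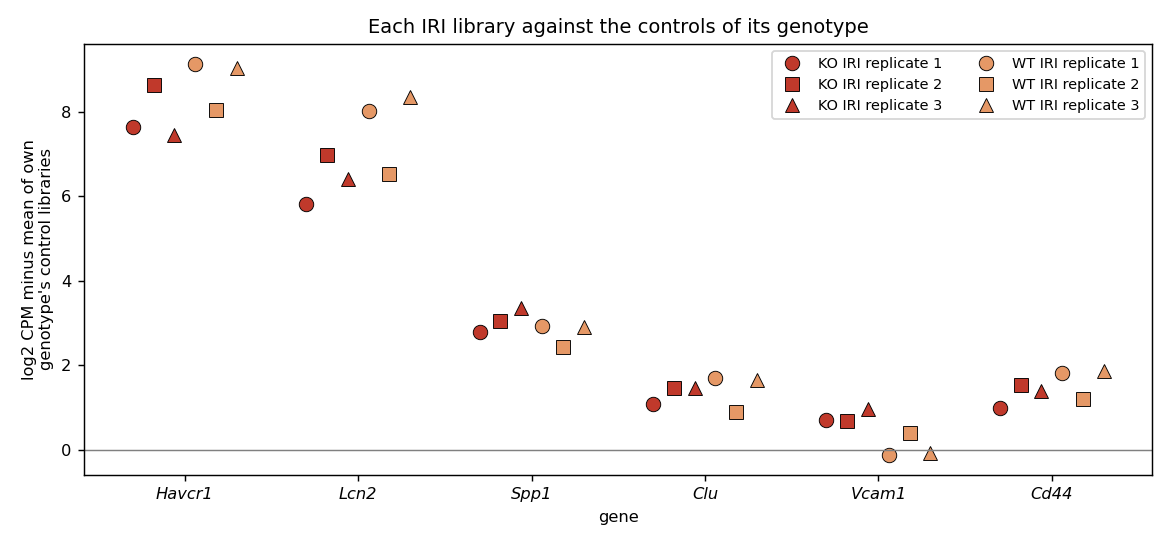
Each injured library minus the mean log2 CPM of the control libraries of its own genotype, with colour for genotype and marker shape for replicate. WT IRI replicate 2 is lowest of its group for every gene but Vcam1, for which it is the highest.

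Deletion of Ybx3 was set against wild type first in uninjured kidneys, and none of the 6 markers was called. Ybx3 itself was not called there either (log2 fold change -1.66, edgeR adjusted p = 0.0784). Of all genes tested, 0.0104%, 2 in number, were called in either direction by edgeR, 72 by DESeq2 and 2 by limma-voom, and at an unadjusted p under 0.05 there were 1030 genes and 3 of the markers. These 3 were Spp1, Clu and Vcam1, and for each of them every KO control library lay below every WT control library, as did 10.1% of all genes tested. Spp1 had a log2 fold change of -0.87 (SE 0.24, 95% interval -1.41 to -0.34, edgeR adjusted p = 0.624), Clu -0.71 (SE 0.20, interval -1.16 to -0.27, edgeR adjusted p = 0.624) and Vcam1 -0.48 (SE 0.17, interval -0.86 to -0.10, edgeR adjusted p = 0.802). Cd44 lay higher in every KO control library (log2 fold change 0.23, SE 0.19, edgeR adjusted p = 0.999), as did 6.34% of all genes. Havcr1 (-0.19, SE 0.40) and Lcn2 (-0.45, SE 0.57) overlapped between the genotypes, at a level near 1 CPM.

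KO control replicates 2 and 3 differed from all WT control libraries in Y-linked level, and KO control replicate 1 did not. Replicate 1 had the highest Spp1, Clu and Vcam1 of the KO controls, at 414, 109 and 7.88 CPM, and the lowest WT control values were 473, 144 and 8.73 CPM. With the Y-linked covariate the log2 fold changes of KO over WT controls were -0.61 for Spp1, -0.71 for Clu and -0.23 for Vcam1, with edgeR adjusted p = 1 for all 3. Without KO control replicate 1, Spp1 passed the threshold (log2 fold change -1.18, edgeR adjusted p = 0.0482), as did 0.663% of all genes tested, 129 in number. In that setting all remaining KO controls were high and all WT controls low in Y-linked level, and genotype and Y-linked level cannot be told apart.

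After injury the KO kidneys had lower values than WT kidneys for Havcr1, Lcn2, Spp1 and Clu, with smaller differences for Cd44 and Vcam1, and none of the differences was called. The edgeR fit called 0.0104% of all genes in this comparison, 2 in number, where DESeq2 called 117 and limma-voom 2, and an unadjusted p under 0.05 was found for 2214 genes and 4 of the markers. Clu averaged 252 ± 36.0 CPM in KO IRI and 445 ± 125 CPM in WT IRI kidneys (SD, n = 3 each), a log2 fold change of -0.82 (SE 0.20, 95% interval -1.26 to -0.38, edgeR adjusted p = 0.422). It was the marker for which every KO IRI library lay below every WT IRI library, as did 5.95% of all genes. DESeq2 called it (log2 fold change -0.84, DESeq2 adjusted p = 0.0314).

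Havcr1 averaged 301 ± 142 CPM in KO IRI and 616 ± 224 CPM in WT IRI kidneys (SD, n = 3 each), a log2 fold change of -1.03 (SE 0.35, interval -1.80 to -0.27, edgeR adjusted p = 0.422). Lcn2 averaged 67.4 ± 26.7 CPM in KO IRI and 207 ± 110 CPM in WT IRI kidneys (-1.62, SE 0.47, interval -2.65 to -0.59, edgeR adjusted p = 0.422). Spp1 averaged 2450 ± 476 CPM in KO IRI and 3722 ± 678 CPM in WT IRI kidneys (-0.60, SE 0.24, interval -1.14 to -0.070, edgeR adjusted p = 0.424). For all 3 the groups overlapped through WT IRI replicate 2, the weakest WT library, which was exceeded by KO IRI replicate 2 for Havcr1 and Lcn2 and by KO IRI replicate 3 for Spp1. Without WT IRI replicate 2, Havcr1 (-1.31, edgeR adjusted p = 0.0486), Lcn2 (-1.99, edgeR adjusted p = 0.0397) and Clu (-1.03, edgeR adjusted p = 0.0395) passed the threshold. In that setting 876 genes passed, 4.43% of those tested, where 2 did with all libraries. Vcam1 had a log2 fold change of 0.21 (SE 0.17, interval -0.16 to 0.59, edgeR adjusted p = 0.568) and Cd44 of -0.11 (SE 0.19, interval -0.52 to 0.30, edgeR adjusted p = 0.785).

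Y-linked and adrenal levels also differed among the injured libraries. The pair at an intermediate Y-linked level, KO IRI replicate 1 and WT IRI replicate 2, had 234 and 358 CPM of Havcr1, 42.3 and 84.8 CPM of Lcn2, 1999 and 2941 CPM of Spp1, and 211 and 302 CPM of Clu. At a high Y-linked level, KO IRI replicate 2 had 463 CPM of Havcr1, 95.5 of Lcn2, 2405 of Spp1 and 273 of Clu, against 769 and 720, 237 and 299, 4152 and 4074, and 525 and 509 CPM in WT IRI replicates 1 and 3. KO IRI replicate 3, of low level, had no WT IRI library of like level. Both KO libraries in these comparisons of 1 library with 1 or 2 hold the adrenal transcripts, and the part of Y-linked level in the KO over WT differences was not tested by them. Without KO IRI replicates 1 and 2, which held the adrenal transcripts, the KO IRI group was replicate 3 alone. The log2 fold changes were then -1.59 for Havcr1, -1.68 for Lcn2, -0.33 for Spp1, -0.70 for Clu, 0.39 for Vcam1 and -0.04 for Cd44. In that fit genotype and Y-linked level cannot be told apart. With the Y-linked covariate over all libraries the log2 fold changes were -0.74, -1.48, -0.78, -0.82, 0.09 and -0.04, in the same order of genes.

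The response to injury itself was compared between genotypes by the interaction of genotype and injury. None of the 6 markers passed, nor did any other gene (0%) in the edgeR fit. An unadjusted p under 0.05 was found for 1350 genes and 1 marker, DESeq2 called 32 genes and limma-voom 0, and none of the markers was called in any of the alternatives. The marker with the small unadjusted p was Vcam1, whose log2 response was larger in KO than in WT kidneys by 0.69 (SE 0.24, 95% interval 0.16 to 1.22, unadjusted p = 0.0156, edgeR adjusted p = 0.666). With the Y-linked covariate the difference was 0.32 (edgeR adjusted p = 1). That difference combines the lower KO control level with the slightly higher KO level after injury, neither of which was called. The responses of Havcr1 (-0.84, interval -2.01 to 0.33), Lcn2 (-1.16, interval -2.78 to 0.45), Spp1 (0.27, interval -0.48 to 1.02), Clu (-0.11, interval -0.73 to 0.52) and Cd44 (-0.34, interval -0.93 to 0.24) differed by amounts whose intervals include 0. With the Y-linked covariate the signs of Havcr1 (0.13) and Spp1 (-0.17) turned, and Lcn2 had -0.80, Clu -0.11 and Cd44 -0.15. Without the adrenal libraries, with KO IRI replicate 3 alone, the values were -1.40 for Havcr1, -1.24 for Lcn2, 0.52 for Spp1, -0.0014 for Clu, 0.85 for Vcam1 and -0.29 for Cd44.

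Averaged over conditions, KO over WT kidneys had log2 fold changes of -0.77 for Clu (SE 0.14, edgeR adjusted p = 0.368), -0.74 for Spp1 (SE 0.17, edgeR adjusted p = 0.501), -1.04 for Lcn2 (SE 0.37, edgeR adjusted p = 0.57) and -0.61 for Havcr1 (SE 0.27, edgeR adjusted p = 0.576). They were -0.13 for Vcam1 and 0.061 for Cd44, and none of the 6 was called, against 0.026% of all genes. An unadjusted p under 0.05 was found for 4 of the markers and 1645 genes in this comparison, and DESeq2 called Spp1 and Clu (adjusted p = 0.0134 and 0.00109) among 121 genes, 0.63% of those tested. Without WT IRI replicate 2 edgeR called Clu among 8 genes (log2 fold change -0.88, edgeR adjusted p = 0.0129). Without the adrenal libraries, with KO IRI replicate 3 alone, the values were -0.70 for Clu, -0.60 for Spp1, -1.06 for Lcn2, -0.88 for Havcr1, -0.038 for Vcam1 and 0.10 for Cd44. For Clu the log2 fold changes in both conditions, -0.71 in controls and -0.82 after injury, lay within each other's intervals. An exact permutation test of the condition labels within each genotype, two-sided and over 400 arrangements, gave p = 0.005 for the injury difference of Havcr1, Lcn2, Spp1, Clu and Cd44 each, the smallest p it can give, and p = 0.045 for Vcam1.

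**Figure D3:**
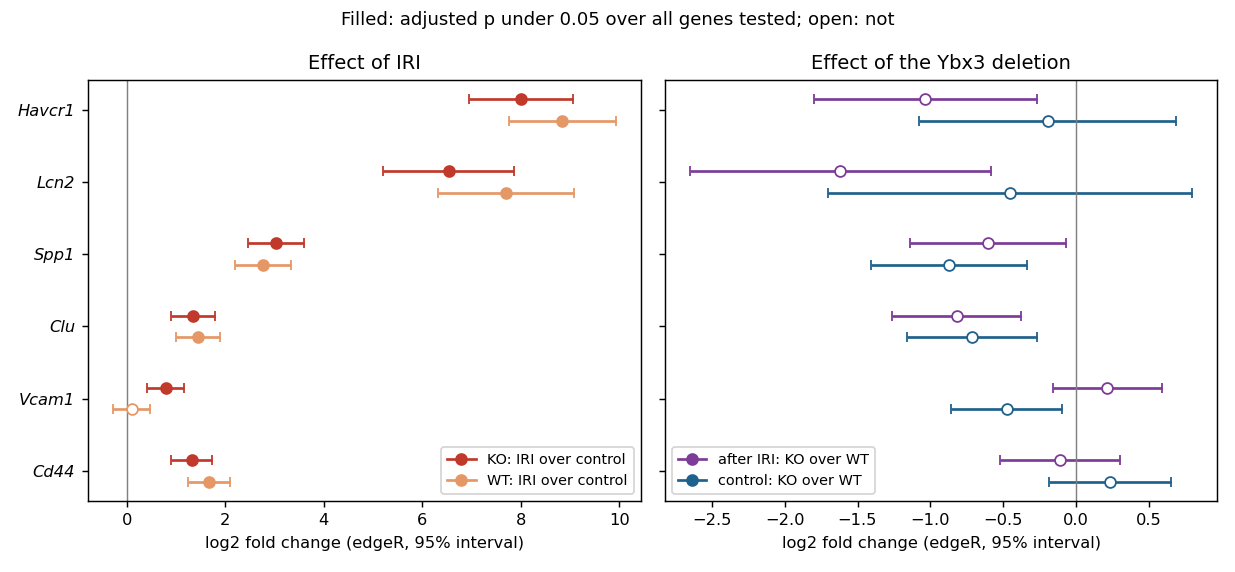
Log2 fold changes of the 6 markers with 95% intervals from the edgeR fit, for injury over control in each genotype on the left and for KO over WT in each condition on the right. Filled points passed an adjusted p under 0.05 over all genes tested, as 6 KO and 5 WT injury responses did and no KO over WT difference did.

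Genes that act with the markers were read from lists drawn up by role, first with all libraries. Beside each list stands the share of all genes tested, 3.9% called higher and 2.42% lower in KO kidneys. In WT kidneys that share was 13.1% higher and 9.41% lower. Of 30 tested further biomarkers and genes of the injured tubule, 17 rose and none fell in KO kidneys, and 21 rose and 1 fell in WT kidneys (median log2 fold change 1.92 and 1.91). Lgals3, the galectin-3 gene, rose by 2.37 in both genotypes (edgeR adjusted p = 0.000469 in KO and 0.000356 in WT). Krt20, a keratin gene, averaged 113 ± 30.6 CPM in KO IRI and 362 ± 388 CPM in WT IRI kidneys, against 0.226 ± 0.19 CPM in KO control and 0.597 ± 0.24 CPM in WT control (SD, n = 3 each). The fibrinogen chain gene Fgg rose by 4.65 in KO (edgeR adjusted p = 0.00502) and 6.29 in WT kidneys (edgeR adjusted p = 0.000972). The inhibitor gene Timp2, whose protein is measured in urine with that of Igfbp7, fell in WT kidneys (-0.81, edgeR adjusted p = 0.037), and Igfbp7 was not called (-0.0054 in KO and -0.25 in WT). Timp1 and Ccl2 were listed at 0 in every library and were not tested. Both lie within the span of another gene on the opposite strand, Syn1 and Gm17268, and no source used here states the counting rule, so a count of 0 says nothing of their expression.

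Receptors, enzymes and anchors of osteopontin and CD44 moved in both directions. Of 21 tested, 6 rose and 1 fell in KO kidneys, and 10 rose and 4 fell in WT kidneys, with median log2 fold changes of 0.49 and 0.71. Itga5, the integrin alpha 5 chain, rose by 1.25 in KO (edgeR adjusted p = 0.00366) and 1.44 in WT kidneys (edgeR adjusted p = 0.000932), and Itgav, a chain of the classical osteopontin receptors, by 0.55 (edgeR adjusted p = 0.046) and 0.73 (edgeR adjusted p = 0.00805). Msn, the moesin gene that links CD44 to the cytoskeleton, rose in WT kidneys (1.16, edgeR adjusted p = 0.00278) and had 0.62 in KO kidneys (edgeR adjusted p = 0.0515). On the hyaluronan side, the synthase gene Has1 rose by 1.22 in KO (edgeR adjusted p = 0.00888) and 0.75 in WT kidneys (edgeR adjusted p = 0.0268), and Cemip, whose protein takes part in hyaluronan breakdown, by 1.99 (edgeR adjusted p = 0.0351) and 2.65 (edgeR adjusted p = 0.00628). Itga8 (-1.49), Itgb5 (-0.49), the secretory kinase gene Fam20c (-0.83) and Rdx (-0.31) fell in WT kidneys, and Rdx (-0.37) in KO kidneys.

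Among 13 tested adhesion partners of VCAM1, 1 rose and none fell in KO kidneys and 6 rose and none fell in WT kidneys (median log2 fold change 0.19 and 0.27). The share called higher among all genes tested was 3.9% in KO and 13.1% in WT kidneys. Icam1, a related endothelial and epithelial adhesion molecule, averaged 26.5 ± 5.08 CPM in KO IRI and 36.5 ± 15.8 CPM in WT IRI kidneys, against 9.80 ± 0.77 CPM in KO control and 11.8 ± 0.96 CPM in WT control (SD, n = 3 each). It rose in both genotypes (log2 fold change 1.44 in KO, edgeR adjusted p = 0.0137, and 1.63 in WT, edgeR adjusted p = 0.00409), whereas its relative Vcam1 was called in KO kidneys and not in WT kidneys. Itga4, which pairs with Itgb1 as the leukocyte receptor of VCAM1, was not called (-0.60 in KO, edgeR adjusted p = 0.0833, and -0.38 in WT, edgeR adjusted p = 0.16). Itgb1 rose in WT kidneys (0.72, edgeR adjusted p = 0.00576), as did Itgam of myeloid cells (2.64, edgeR adjusted p = 0.00348) and Selp, the P-selectin gene (3.13, edgeR adjusted p = 0.012).

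Receptors that take up filtered lipocalin 2 and clusterin, and genes of iron handling, were read as another list of 13. In KO kidneys 3 rose and none fell, and in WT kidneys 5 rose and 3 fell (median log2 fold change 0.57 and 0.40). Lrp2, the megalin gene of the proximal tubule brush border, averaged 2710 ± 939 CPM in KO IRI and 2388 ± 1040 CPM in WT IRI kidneys, against 5894 ± 378 CPM in KO control and 6887 ± 1243 CPM in WT control (SD, n = 3 each). It fell in WT kidneys (log2 fold change -1.53, edgeR adjusted p = 0.0109) and was not called in KO kidneys (-1.12, edgeR adjusted p = 0.0641), and Cubn, its partner cubilin, had -1.22 (edgeR adjusted p = 0.0109) in WT and -0.74 (edgeR adjusted p = 0.116) in KO kidneys. Slc22a17, a receptor for lipocalin 2, fell in WT kidneys (-0.89, edgeR adjusted p = 0.0158). The ferritin heavy chain gene Fth1 rose by 0.86 in KO (edgeR adjusted p = 0.0421) and 1.75 in WT kidneys (edgeR adjusted p = 0.00179), and Hp, the haptoglobin gene, by 3.42 (edgeR adjusted p = 0.0242) and 3.52 (edgeR adjusted p = 0.0107).

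Relatives of Havcr1 and other genes of dead cell uptake made a list of 18, of which 3 rose and none fell in KO and 6 rose and 2 fell in WT kidneys (median log2 fold change 0.24 and 0.19). Pros1, a bridging ligand between phosphatidylserine and its receptor kinases, rose by 0.96 in KO (edgeR adjusted p = 0.00604) and 0.67 in WT kidneys (edgeR adjusted p = 0.0106). Of those kinases, Axl rose by 0.83 in KO (edgeR adjusted p = 0.00986) and 0.49 in WT kidneys (edgeR adjusted p = 0.0311), and Mertk fell in WT kidneys (-0.61, edgeR adjusted p = 0.0255). Timd2, which lies in the same family as Havcr1, rose in WT kidneys (5.15, edgeR adjusted p = 0.0118). Among the control libraries it was high in the pair with a high Y-linked level. It had 24.8, 92.6 and 11.5 CPM in KO IRI and 159, 33.2 and 105 CPM in WT IRI, against 2.10, 40.4 and 42.6 CPM in KO control and 2.5, 3.07 and 2.76 CPM in WT control. Havcr1 in the same control libraries had 0.859 CPM in the KO library of low Y-linked level, 1.09 and 1.57 CPM in those of high level, and 1.12 to 1.46 CPM in the WT controls, all of low level.

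Transcription factors tied to injury rose widely in WT kidneys, with 17 of 22 called higher and none lower (median log2 fold change 1.66), and 4 were called higher and none lower in KO kidneys (median 1.20). The 4 were Nfkb2 (1.44 in KO, edgeR adjusted p = 0.00423), Stat3 (1.40, edgeR adjusted p = 0.0184), Relb (1.45, edgeR adjusted p = 0.022) and Fosl1 (2.49, edgeR adjusted p = 0.0478), and all of them were also called in WT kidneys. Cebpb, which encodes a C/EBP factor, averaged 6.03 ± 2.91 CPM in KO IRI and 18.7 ± 16.0 CPM in WT IRI kidneys, against 2.55 ± 0.86 CPM in KO control and 2.39 ± 0.56 CPM in WT control (SD, n = 3 each). It was called in WT kidneys (2.97, edgeR adjusted p = 0.00816) and not in KO kidneys (1.24, edgeR adjusted p = 0.213). In the interaction and in the KO over WT comparisons no gene of these 6 partner lists was called with all libraries, so that a different response between the genotypes was not shown for any of them. Without WT IRI replicate 2, 876 genes passed for KO over WT kidneys after injury, 2.23% of those tested higher and 2.21% lower. In that setting 6 of 30 biomarkers, 4 of 22 osteopontin and CD44 partners and 3 of 22 transcription factors were called lower in KO kidneys.

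Most KO calls of these lists were lost without KO IRI replicates 1 and 2, as were those of the table as a whole. Of the biomarker list, 3 of 30 were then called higher in KO kidneys, namely Lgals3 (log2 fold change 2.42, edgeR adjusted p = 0.00718), Krt20 (9.21, edgeR adjusted p = 0.0247) and Dcdc2a (1.52, edgeR adjusted p = 0.0418). Of the osteopontin and CD44 partners Itga5 was called (1.34, edgeR adjusted p = 0.0452), and of the transcription factors Nfkb2 (1.42, edgeR adjusted p = 0.0452). No gene of the adhesion, lipocalin 2 and clusterin, or dead cell uptake lists was. The list medians were 1.70 for the biomarkers, 0.47 for the osteopontin and CD44 partners, 0.16 for the adhesion partners, 0.46 for the lipocalin 2 and clusterin partners, 0.094 for dead cell uptake and 0.79 for the transcription factors. In WT kidneys it was the Y-linked covariate that took most calls. With it 15 of 30 biomarkers, 2 of 21 osteopontin and CD44 partners, 1 of 13 lipocalin 2 and clusterin partners and 1 of 22 transcription factors were called higher, no gene of the adhesion or dead cell uptake lists was called, and none was lower in any of the 6 lists. The share of all genes tested called with this covariate was 1.14% higher and 0.447% lower. The medians in that fit were 2.31 for the biomarkers and 1.21 for the transcription factors. The counts for KO and WT kidneys above therefore change when these libraries are left out and when this term is added. For KO kidneys, adrenal content, the smaller injured group and the low Y-linked level of the injured library that is left cannot be told apart.

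Markers of the cells around and within the tubule were read beside these values. Among all genes tested, 3.9% were called higher and 2.42% lower in KO kidneys, and 13.1% higher and 9.41% lower in WT kidneys. Of 17 proximal tubule markers, 4 fell and none rose in KO and 7 fell and none rose in WT kidneys, and of 15 tested markers of the thick ascending limb, distal tubule and collecting duct, 2 fell in KO and 9 in WT kidneys and none rose. The median log2 fold changes were -1.02 in KO and -1.16 in WT kidneys for the first list and -0.22 and -1.33 for the second. The first list was not uniform, with log2 fold changes from -4.70 to 0.98 in KO and from -2.66 to 4.50 in WT kidneys. Its gene Slc7a13 had an interaction of -9.20 (SE 2.49, edgeR adjusted p = 0.666). In KO over WT control kidneys the highest log2 fold change of that list was 7.63, and none of its genes was called. The summed proximal tubule level was 6714 to 14005 CPM in KO IRI and 6340 to 12039 CPM in WT IRI, against 16082 to 21911 CPM in KO control and 16575 to 21518 CPM in WT control. Of 8 tested neutrophil markers, 2 rose in KO and 6 in WT kidneys, and of 8 tested lymphocyte markers, 1 fell in KO and 6 in WT kidneys. The limit given above for the tested neutrophil markers holds here too. The median was 2.66 in KO and 5.32 in WT kidneys for the neutrophil list and -0.93 and -1.55 for the lymphocyte list, on the log2 scale. Among 10 endothelial markers Kdr fell in both genotypes and none rose, and among 11 fibroblast and matrix markers Vim and Pdgfrb rose in both while Lum fell in WT kidneys (medians 0.064 in KO and -0.14 in WT for the endothelial and 0.53 and -0.054 for the fibroblast list). Without KO IRI replicates 1 and 2, the calls in KO kidneys that were left in these cell type lists were Cd68 (2.09, edgeR adjusted p = 0.0247) and Csf1r (-1.07, edgeR adjusted p = 0.0418), and the proximal tubule median was -1.11. With the Y-linked covariate, the calls in WT kidneys were 2 of 8 neutrophil markers, 2 higher and 1 lower of 14 macrophage and monocyte markers, 1 fibroblast marker higher, and 1 lower in each of the endothelial, lymphocyte and distal nephron lists, and no proximal tubule marker. The part of these cell types in the marker results was not tested.

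**Figure D4:**
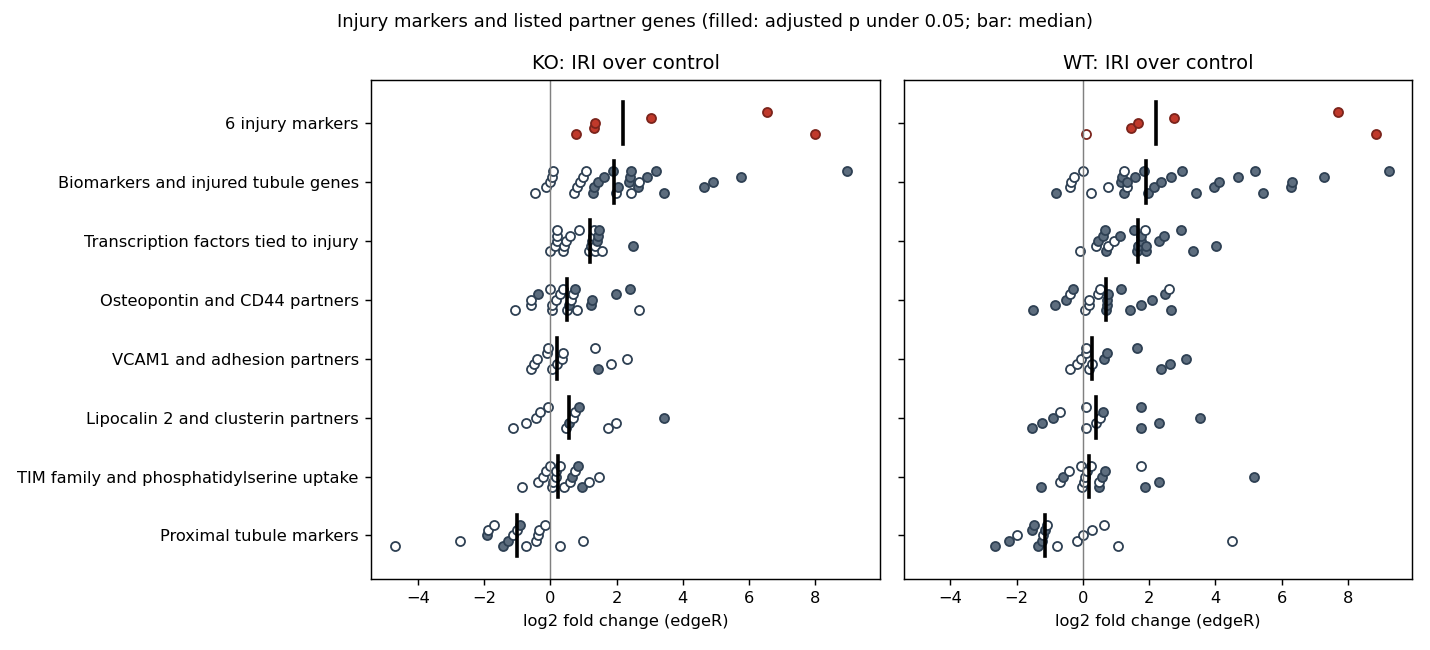
Log2 fold change of injury over control for the 6 markers and for the genes of 7 lists, with KO kidneys on the left and WT kidneys on the right, filled points for an adjusted p under 0.05 and bars for the median. The median of the 6 markers is 2.19 in KO and 2.21 in WT kidneys, and that of the proximal tubule list is -1.02 and -1.16.

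For each marker the 3 protein-coding genes with the nearest profile were taken from 15752 tested genes, by the root mean square difference of log2 CPM over the 12 libraries after subtraction of each gene's WT control mean. Havcr1 and Lcn2 were among each other's 3 nearest genes (1.08), and both shared Krt20 (1.02 from Havcr1 and 1.20 from Lcn2) and the chemokine gene Cxcl1 (1.79 and 0.97). Spp1 was nearest to Sfn (0.37), Spaca7 (0.39) and Lgals3 (0.41), and Clu to Arl4c (0.24), Hpdl (0.24) and Ucp2 (0.27). Cd44 was nearest to Slc16a6 (0.22), Anxa3 (0.24) and Ppp1r14b (0.25). Vcam1 was nearest to Atp8b2 (0.15), Acsf2 (0.16) and Sulf2 (0.16). These had 13.2, 21.9 and 30.3 CPM in KO control and 16.8, 28.1 and 37.5 CPM in WT control kidneys. They were picked by likeness over all 12 libraries, KO controls included, so a lower KO control level shared with Vcam1 follows from the selection. The 12 libraries share groups and library-wide differences, so likeness of profile is a description of these samples.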

How the data were processed

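Total RNA of 12 mouse kidney samples was sequenced. Ribosomal RNA was removed with Ribo-off, directional libraries were built with NEBNext Ultra II reagents, and both ends were read on a NovaSeq, per the labels' protocols. Per the submitters' processing notes, STAR and mm10 were used. The sources used here name no counting tool or strand setting. The authors deposited whole-number read counts per Ensembl gene, not normalized, for 42748 genes, with 42462 present in GENCODE M21. Total counts ran from 39074224 to 67948710 per library, and libraries of a group differed by more than sampling noise.

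From these counts, edgeR 4.0.16 in R 4.3.3 kept 19218 genes (filterByExpr, minimum count 10, minimum total 15), scaled libraries by TMM (factors 0.90 to 1.06) and fitted all 12 libraries with 1 coefficient per group. Each of 7 comparisons was tested two-sided by quasi-likelihood, with Benjamini-Hochberg adjustment over all genes tested and a call at an adjusted p under 0.05. Standard errors were derived from the log2 fold change and the F statistic of its test, and 95% intervals from these with the t distribution. Log2 CPM carry a prior count of 2. The procedure was tested on simulated counts with known changes, which held no Y-linked or adrenal differences between the libraries of a group. The markers and the 15 gene lists were chosen with earlier results of these data known, and no list was tested as a set. The named genes are the 6 markers, Ybx3, listed genes starting from the called ones of smallest p, and the 3 nearest profiles of each marker. Alternatives were RLE scaling, library sizes alone, DESeq2 1.42.0, voom of limma 3.58.1, other filters, a replicate block, only the groups compared, a Y-linked covariate, and fits without single libraries, without the adrenal libraries (KO IRI replicates 1 and 2), without those of intermediate Y-linked level (KO IRI replicate 1, WT IRI replicate 2) or without small RNA and pseudogenes. Counts of called genes in the lists were also taken without the adrenal libraries, without WT IRI replicate 2 and with the Y-linked covariate. All of these list settings, the covariate among them, were chosen after seeing the data.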

Additional observations from a re-analysis of the deposited data

How the results depend on the processing

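Over the 24 settings other than the main one, the calls of Havcr1, Lcn2 and Spp1 for injury kept their direction and passed the threshold in both genotypes, and those of Clu and Cd44 did so in WT kidneys. Of the 6 markers, the number called for injury in KO kidneys was 3 without the adrenal libraries, where the KO injured group is 1 library. In KO over WT control kidneys it was 0 to 1 when leaving out a library each. In KO over WT kidneys after injury it was 1 with DESeq2 and 0 to 3 when leaving out a library each. Averaged over conditions it was 2 with DESeq2, 0 to 1 when leaving out a library each and 1, Clu, without the intermediate Y-linked libraries. The cause was not tested. Signs turned in 13 results and settings, in none of which the value was called in either fit. For Vcam1 in WT kidneys the log2 fold change was -0.099 to 0.18 when leaving out a library each, with the lowest value without WT IRI replicate 2, and -0.11 without the intermediate Y-linked libraries. Lcn2 in KO over WT controls was -0.82 to 0.096 when leaving out a library each, with the highest without WT control replicate 1. Cd44 in KO over WT kidneys after injury was 0.0083 with library sizes alone, 0.0027 without WT IRI replicate 3 and 0.029 without KO IRI replicate 1 (range -0.29 to 0.029), and -0.029 averaged over conditions without WT IRI replicate 2. In the interaction, Havcr1 was 0.13 (-0.84 without the term) and Spp1 -0.17 (0.27 without it) with the Y-linked covariate, which also lowered Vcam1 to 0.32 (0.69 without it), and Clu was 0.041 with library sizes alone and 0.0088, 0.0023 and 0.0099 without WT IRI replicate 1, WT IRI replicate 3 and KO IRI replicate 1 (range -0.32 to 0.0099). Vcam1 for injury averaged over genotypes was called (0.44, edgeR adjusted p = 0.0198) and missed the threshold in 5 settings (edgeR adjusted p from 0.0506 to 0.0708). Of 18 same-numbered pairs across groups none deviated together with a correlation over 0.1 (-0.42 to 0.077). With 3 libraries per group, this does not exclude a pairing of samples by replicate number. With the number as a replicate block the count of called markers was 5 in KO and 5 in WT kidneys, since Vcam1 in KO kidneys missed the threshold (log2 fold change 0.79, edgeR adjusted p = 0.0643). The block changed no other call. Depth limits Havcr1 and Lcn2 in control kidneys, which rest on 27 to 99 counts per library.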
